A study of Mus musculus with 18 samples.

Results

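The DEAD and DEAH box RNA helicases are the genes whose mouse symbols are Ddx or Dhx followed by a number. To ask whether any paralog of Ddx6 changed when Ddx6 was knocked out, the protein-coding genes with such a symbol on the autosomes were taken, other than Ddx6, and those with at least 3 CPM (read counts scaled to a common library total) in at least 3 of the 18 libraries were kept. Of 50 matching genes 48 passed, out of 12705 genes tested in all. Ddx60 and Dhx58 missed the filter, and 2 matching genes on the X and Y chromosomes were left out.

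These proteins bind RNA and couple the binding and hydrolysis of ATP to the opening of short duplexes or the remodelling of RNA-protein complexes. Their names come from motif II of the helicase core, written D-E-A-D or D-E-A-H in single letter amino acid code. DEAD box proteins such as DDX6 pry apart short helices locally, while DEAH box proteins move along a single strand. Members serve in splicing, mRNA export, ribosome assembly, mitochondrial RNA processing, translation, decay and the sensing of viral RNA. DDX6 acts in the cytoplasm in translational repression and in mRNA decay, and is a core component of P-bodies.

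The cells were V6.5 mouse embryonic stem cells (ESCs) grown with serum, LIF and the 2i inhibitors. They were either wild-type (WT) or CRISPR-made Ddx6 knockouts (KO, labelled DDX6 KO), and both genotypes were treated with cycloheximide to hold ribosomes in place. Lysates were spun through sucrose gradients, and 3 gradients per genotype yielded a monosome fraction, a low polysome fraction of 2 to 4 ribosomes and a high polysome fraction of 4 or more, which gave 6 groups of 3 libraries. Clone 1 gave KO gradient 1 and clone 2 gave the other KO gradients, so the 3 KO gradients represent 2 clones, and p-values measure only the spread between gradients. The kit reads transcripts from their 3′ ends, so CPM values were not divided by length and were compared between genes as 3′ tags.

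To show the motif that names the family, 30 bases of coding sequence around it are given for Ddx6, for the 4 members that were called in the same direction in all 3 fractions, and for 3 members with another letter in the motif. The 4 motif codons are in capitals. Sequences are from Gencode M21 transcripts, 5′ to 3′ on the coding strand, with GRCm38 coordinates below.
Ddx6: atagtgctaGATGAGGCAGATaaattgttg
Ddx47: ttggtcatgGATGAAGCAGACcggatactg
Ddx4: ttagttttgGATGAAGCTGATcgaatgttg
Ddx43: ttggttttaGATGAAGCAGACaagatgctg
Dhx16: gtgatggtgGATGAAGCTCACgagcggacc
Dhx9: gttattgtgGATGAAATTCATgaaagagat
Ddx21: gttgtcctgGATGAAGTCGACcagatgttg
Ddx39: tttgtgctaGATGAATGTGACaagatgctg

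The Ddx47 window lies in exon 5 of 12 at chr6:135015890-135015919 on the plus strand, and the Ddx4 window in exon 17 of 22 at chr13:112612088-112612117 on the minus strand. The Dhx16 window is in exon 10 of 20 at chr17:35885499-35885528 (plus), and those of Dhx9, Ddx21 and Ddx39 are in exon 14 of 28 at chr1:153468880-153468909 (minus), exon 6 of 15 at chr10:62591872-62591901 (minus) and exon 5 of 11 at chr8:83721101-83721130 (plus). The Ddx6 window spans exons 7 and 8 of 14 at chr9:44626468-44627652 (plus), and the Ddx43 window spans exons 9 and 10 of 17 at chr9:78413882-78414250 (plus). In the coding sequences, the motif was searched in order after a motif I (G, K or R, then S or T) and before a motif III (S or T, A, T), with 60 to 250 residues between the first pair and 15 to 75 between the second. It was found in 43 of 48 members, against 73 of 11778 tested genes with a coding sequence (0.62%). D-E-A-D stood in 24 members, D-E-V-D in Ddx21 and Ddx50, D-E-C-D in Ddx39 and Ddx39b, and D-E-S-D in Ddx52. D-E-A-H stood in 8 members, D-E-V-H in 4, and D-E-I-H in Dhx9 and Dhx36. Ddx1, Ddx11, Ddx28, Ddx58 and Dhx32 gave no match in this search.

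Libraries held 2543617 to 11474550 gene counts, with the shallowest libraries in the WT monosome. Ddx6 itself was at 143 to 212 CPM in the 9 WT libraries. In KO it was at 55.1 to 82.4 CPM in clone 1 and 9.64 to 26.6 CPM in clone 2, with no overlap with WT in any fraction and log2 changes of -2.35, -2.62 and -3.32 from monosome to high polysome. Its tags lie at the 3′ end of the transcript and do not show the edited site. The defining ESC markers (Pou5f1, Nanog, Sox2, Esrrb and Zfp42) were each at 19.4 CPM or more in all libraries, and the summed level of a list of 6 fibroblast genes stayed at or below 11.1 CPM. A list of 4 primed epiblast genes summed to 103 to 148 CPM in WT and 32.6 to 80.1 CPM in KO, with Fgf5 under 3 CPM throughout. Lists of 4 primitive endoderm and 3 trophoblast genes summed to at most 9.76 and 7.98 CPM. The part of these shifts in the results below was not tested.

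Averaged over the 6 groups, the members ranged from 4.39 CPM (Ddx25, a testis-enriched helicase) to 772 CPM (Ddx17, a transcriptional coregulator and splicing factor), with a median of 40.8 CPM. Ddx39b and Ddx39, helicases of the mRNA export pathway, followed Ddx17 at 283 and 231 CPM. In 26 members all 18 libraries had at least 100 counts. In Ddx18 and Ddx5, 51.0% and 22.6% of the 50-base stretches in the last 500 bases of their transcripts also occurred in another gene, largely pseudogenes. Their values are therefore uncertain. For Ddx50 the share was 9.42%, and for Ddx19a it was 9.83%, all of it in its paralog Ddx19b.

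Of the 48 members 36 (75%) were called in at least 1 fraction at a Benjamini-Hochberg adjusted p under 0.05 in limma, against 72.2% of all genes tested. The members were thus called about as often as any gene, and the split into higher and lower calls varied by fraction. In the monosome 2 members were higher in KO (4.17%, against 18.6% of all genes) and 14 were lower (29.2%, against 20.1%). In the low polysome 9 were higher (18.8%, against 23.4%) and 11 lower (22.9%, against 24.3%). In the high polysome 16 were higher (33.3%, against 25.3%) and 3 lower (6.25%, against 21.1%). The median log2 change of the members was -0.26 for monosomes, -0.04 for low polysomes and 0.23 for high polysomes, against -0.03, -0.03 and -0.0072 over all genes tested. The fractions of a gradient came from the same lysate, so these comparisons are not independent, and each set of values is given side by side. Leaving out KO gradient 3 brought the 14 monosome calls to 6 and the 16 high polysome calls to 8, and leaving out WT gradient 2 brought them to 9 and 9. In the low polysome the 9 higher calls became 4 without KO gradient 2 and 5 without WT gradient 2, and the 11 lower calls became 7 without KO gradient 3 or WT gradient 3. Without WT gradient 1 the 3 lower calls of the high polysome became 6. With the size factors of DESeq2 in place of TMM, 12 members were higher and 5 lower in the high polysome.

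Only 4 members were called in the same direction in all 3 fractions. Ddx47 and Ddx4 were higher in KO (4.17% of members, against 9.93% of genes tested), and Dhx16 and Ddx43 were lower (4.17%, against 8.41%). Each of these calls held in all alternative analyses, including the omission of any gradient. All 4 differed in the same direction in both KO clones.

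**Figure D1:**
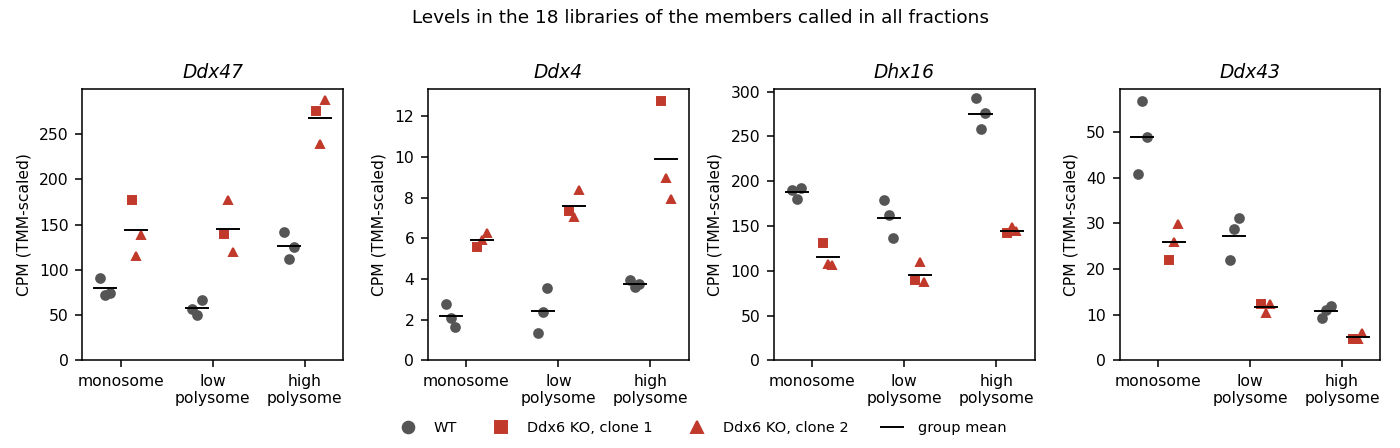
TMM-scaled CPM (vertical axes from 0) of Ddx47, Ddx4, Dhx16 and Ddx43 in each fraction. Grey circles are WT gradients, red squares are KO clone 1, red triangles are KO clone 2, and bars are group means. For all 4 genes the KO points do not overlap the WT points in any fraction.

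Ddx47 encodes a nucleolar helicase needed for the maturation of the small ribosomal subunit. In WT gradients 1 to 3 it stood at 91.2, 72.4 and 74.7 CPM among monosomes, 56.5, 49.8 and 66.8 among low polysomes and 141, 112 and 125 among high polysomes. In KO gradients 1 to 3 it stood at 177, 115 and 138 CPM among monosomes, 139.7, 178 and 119 among low polysomes and 275, 239 and 288 among high polysomes. Every KO library was above every WT library of its fraction. The log2 changes ± SE were 0.85 ± 0.18 (adjusted p = 0.000777) for monosomes, 1.32 ± 0.17 (adjusted p = 3.32e-06) for low polysomes and 1.09 ± 0.16 (adjusted p = 1.98e-05) for high polysomes. Over the mean of the 3 fractions, tested over gradients, the log2 change was 1.08 ± 0.10 (adjusted p = 1.08e-06). The KO effect on its high polysome over monosome ratio was 0.24 ± 0.24 (adjusted p = 0.523), which did not pass the test.

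Ddx4, the vasa helicase of the germ line, was among the least abundant members, with 7 to 115 counts in a library. WT libraries held 2.78, 2.08 and 1.65 CPM among monosomes, 1.34, 2.38 and 3.54 among low polysomes and 3.96, 3.59 and 3.75 among high polysomes. KO libraries held 5.59, 5.90 and 6.26 CPM among monosomes, 7.32, 7.07 and 8.38 among low polysomes and 12.8, 8.99 and 7.95 among high polysomes. All KO values lay above all WT values of their fraction, and the KO level in clone 1 was the highest of the 3 in the high polysome. Changes were 1.46 ± 0.38 (adjusted p = 0.00486), 1.74 ± 0.30 (adjusted p = 9.43e-05) and 1.35 ± 0.24 (adjusted p = 0.000123) from monosome to high polysome, and 1.44 ± 0.15 (adjusted p = 5.68e-06) for the mean over fractions. In these bulk lysates, more cells with the transcript and more transcript per cell cannot be told apart.

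Dhx16, a DEAH box factor that activates the spliceosome before the first step of splicing, was lower in KO. Its WT levels were 190.4, 180.5 and 193 CPM among monosomes, 179, 162 and 136 among low polysomes and 292, 258 and 276 among high polysomes. Its KO levels were 131, 107 and 107 CPM among monosomes, 89.6, 110.1 and 87.2 among low polysomes and 142, 149 and 144 among high polysomes. No KO library reached the lowest WT value of its fraction, and the KO libraries of the high polysome lay close together. Its log2 changes were -0.71 ± 0.13 (adjusted p = 0.000179), -0.74 ± 0.13 (adjusted p = 7.44e-05) and -0.93 ± 0.12 (adjusted p = 4.69e-06) from monosome to high polysome, and -0.79 ± 0.084 (adjusted p = 5.27e-06) over their mean.

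Ddx43, a KH domain helicase expressed in the germ line and in some tumours, fell in all fractions too. It was at 40.9, 56.7 and 48.9 CPM among monosomes, 21.97, 28.8 and 31.2 among low polysomes and 9.21, 11.1 and 12.01 among high polysomes in WT. It was at 21.99, 25.9 and 29.8 CPM among monosomes, 12.3, 10.3 and 12.4 among low polysomes and 4.77, 4.66 and 6.01 among high polysomes in KO. The ranges were apart in each fraction, and in both genotypes the high polysome held the lowest levels. The changes were -0.94 ± 0.17 (adjusted p = 0.000175), -1.20 ± 0.18 (adjusted p = 2.05e-05) and -1.06 ± 0.23 (adjusted p = 0.000735), and -1.04 ± 0.14 (adjusted p = 2.8e-05) for the mean over fractions. The KO effect on its high polysome over monosome ratio was -0.13 ± 0.28 (adjusted p = 0.786) and did not pass the test.

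For the mean over fractions 8 members were called higher (16.7%, against 28.5% of all genes) and 9 lower (18.8%, against 28.5%), with a median of -0.02 for members and for all genes alike. With DESeq2 size factors 6 were higher and 12 lower. Beside Ddx47 and Ddx4, the higher group held Dhx32, Ddx54, Ddx41, Dhx38, Dhx8 and Ddx23. Without KO gradient 2 or KO gradient 3 the 8 higher calls became 4, and without WT gradient 2 they became 5.

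Ddx54, a nucleolar helicase of large subunit assembly, was at 76.97, 88.9 and 78.4 CPM among monosomes, 42.7, 44.2 and 56.1 among low polysomes and 152, 143 and 144 among high polysomes in WT. In KO it was at 80.8, 70.6 and 70.3 CPM among monosomes, 69.2, 93.6 and 76.2 among low polysomes and 199, 212 and 218 among high polysomes. The KO values were above all WT values in the low and high polysome and overlapped them in the monosome. The change was 0.37 ± 0.084 (adjusted p = 0.00208) over the mean, 0.74 ± 0.13 (adjusted p = 0.000135) in the low polysome and 0.52 ± 0.12 (adjusted p = 0.0018) in the high polysome.

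Dhx32, whose function is poorly known, was at 21.03, 19.9 and 21.7 CPM among monosomes, 17.1, 20.8 and 21.6 among low polysomes and 52.8, 51.7 and 50.1 among high polysomes in WT. KO values were 24.02, 26.6 and 26.1 CPM among monosomes, 30.99, 27.9 and 31.97 among low polysomes and 63.6, 68.99 and 51.9 among high polysomes. The groups were apart in the monosome and low polysome and overlapped in the high polysome. The change was 0.38 ± 0.095 (adjusted p = 0.00391) over the mean and 0.62 ± 0.14 (adjusted p = 0.00134) in the low polysome, the sole fraction in which it was called. With counts summed over fractions in edgeR the call on the mean was lost.

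Ddx41, a helicase found in spliceosomes and linked to familial blood cancers, was at 39.3, 47.9 and 38.4 CPM among monosomes, 33.2, 28.2 and 36.5 among low polysomes and 60.7, 55.8 and 56.8 among high polysomes in WT. KO values were 49.2, 42.1 and 41.8 CPM among monosomes, 38.97, 56.5 and 42.9 among low polysomes and 64.01, 71.4 and 77.5 among high polysomes. KO was above WT in the low and high polysome without overlap, but the high polysome change of 0.29 ± 0.14 (adjusted p = 0.0843) was not called. The change over the mean was 0.29 ± 0.09 (adjusted p = 0.0149), and the call was lost without KO gradient 2 or KO gradient 3 (adjusted p = 0.0649 to 0.0762).

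Dhx38, the helicase that acts before the second step of splicing, was at 72.6, 67.6 and 55.9 CPM among monosomes, 53.2, 46.98 and 64.2 among low polysomes and 57.03, 48.3 and 57.05 among high polysomes in WT. In KO it was at 71.95, 61.4 and 58.9 CPM among monosomes, 51.4, 59.4 and 47.9 among low polysomes and 88.2, 102 and 112 among high polysomes. The groups overlapped in the monosome and the low polysome, and KO stood well above WT in the high polysome. The high polysome change was 0.90 ± 0.14 (adjusted p = 3.31e-05), and the change over the mean was 0.27 ± 0.089 (adjusted p = 0.0182). The latter was lost without KO gradient 2 or 3 or WT gradient 2 (adjusted p = 0.0636 to 0.0731).

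Dhx8, which releases spliced mRNA from the spliceosome, showed the same layout. WT levels were 28.96, 25.9 and 28.9 CPM among monosomes, 25.5, 27.9 and 30.3 among low polysomes and 24.04, 23.5 and 29.6 among high polysomes. KO levels were 37.4, 27.1 and 27.3 CPM among monosomes, 24.6, 29.9 and 21.6 among low polysomes and 36.9, 53.1 and 49.2 among high polysomes. Only in the high polysome were the groups apart. The changes were 0.84 ± 0.16 (adjusted p = 0.000302) in the high polysome and 0.27 ± 0.10 (adjusted p = 0.0416) over the mean, and the latter was lost without KO gradient 1 or 2 or 3 or WT gradient 1 or 2 (adjusted p = 0.0665 to 0.161).

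Ddx23, the U5 snRNP helicase, was at 25.8, 31.9 and 24.4 CPM among monosomes, 23.3, 20.8 and 26.3 among low polysomes and 46.9, 35.98 and 45.04 among high polysomes in WT. KO values were 31.5, 24.3 and 25.8 CPM among monosomes, 32.95, 39.5 and 26.3 among low polysomes and 50.5, 53.5 and 53.1 among high polysomes. Those in the low and high polysome exceeded all WT values of the fraction, but the lowest KO and the highest WT value of the low polysome were nearly equal. The high polysome change of 0.31 ± 0.15 (adjusted p = 0.0955) was not called. The change over the mean was 0.26 ± 0.10 (adjusted p = 0.0399), and it was lost when any single gradient was left out, without KO gradient 1 or 2 or 3 or WT gradient 1 or 2 or 3 (adjusted p = 0.0525 to 0.131).

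Among the members lower over the mean, Dhx9 came next after Ddx43 and Dhx16. DHX9 (RNA helicase A) unwinds RNA and RNA-DNA hybrids in transcription, RNA processing and translation. It was at 211, 216 and 228 CPM among monosomes, 125, 140.2 and 147 among low polysomes and 75.95, 111 and 123 among high polysomes in WT. In KO it was at 102, 124 and 126 CPM among monosomes, 85.1, 71.2 and 84.8 among low polysomes and 81.98, 95.4 and 81.5 among high polysomes. The groups were apart in the monosome and the low polysome and overlapped in the high polysome. The changes were -0.90 ± 0.15 (adjusted p = 8.88e-05), -0.77 ± 0.15 (adjusted p = 0.000283) and -0.23 ± 0.15 (adjusted p = 0.206) in the 3 fractions in this order, and -0.63 ± 0.10 (adjusted p = 0.000124) over the mean.

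Ddx59, linked to an orofaciodigital syndrome, was at 9.92, 8.79 and 9.70 CPM among monosomes, 8.42, 8.70 and 5.94 among low polysomes and 19.8, 25.6 and 18.3 among high polysomes in WT. KO values were 4.07, 8.55 and 6.26 CPM among monosomes, 6.15, 6.39 and 7.95 among low polysomes and 12.2, 14.1 and 11.1 among high polysomes. KO was below WT without overlap in the monosome and the high polysome, but the monosome change of -0.64 ± 0.28 (adjusted p = 0.0798) was not called. The change over the mean was -0.51 ± 0.15 (adjusted p = 0.00986) and that in the high polysome was -0.76 ± 0.19 (adjusted p = 0.00255).

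Ddx46, a helicase of the U2 snRNP that helps to select the branch site, was at 48.4, 48.6 and 44.6 CPM among monosomes, 30.9, 47.5 and 55.98 among low polysomes and 32.6, 44.1 and 50.4 among high polysomes in WT. KO values were 27.97, 34.3 and 29.01 CPM among monosomes, 27.6, 23.5 and 29.3 among low polysomes and 37.9, 34.98 and 43.1 among high polysomes. The groups were apart in the monosome and low polysome and overlapped in the high polysome. The change over the mean was -0.48 ± 0.12 (adjusted p = 0.00389).

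Ddx10, needed for small ribosomal subunit assembly, was at 21.03, 14.6 and 17.1 CPM among monosomes, 23.6, 27.6 and 31.8 among low polysomes and 34.8, 40.4 and 36.5 among high polysomes in WT. Its KO values were 9.41, 13.4 and 8.56 CPM among monosomes, 17, 25.9 and 22.4 among low polysomes and 38.4, 26.5 and 37.6 among high polysomes. Only the monosome groups did not overlap. The change over the mean was -0.41 ± 0.10 (adjusted p = 0.0044) and that in the monosome was -0.73 ± 0.25 (adjusted p = 0.0268), a call lost without KO gradient 1 or 3 or WT gradient 1 or 3 (adjusted p = 0.0598 to 0.108).

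Ddx50, a nucleolar paralog of Ddx21, was at 63.9, 56.01 and 64.6 CPM among monosomes, 52.4, 52.9 and 38.04 among low polysomes and 49.99, 74.8 and 64.8 among high polysomes in WT. KO values were 43.6, 54.8 and 56.7 CPM among monosomes, 43.02, 26.5 and 50.4 among low polysomes and 52.8, 47.9 and 38.9 among high polysomes. The groups overlapped in every fraction and no fraction was called, while the change over the mean was -0.33 ± 0.10 (adjusted p = 0.0117). That call was lost without KO gradient 2 or WT gradient 2 (adjusted p = 0.0522 to 0.0676).

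Ddx1, a component of the tRNA ligase complex, was at 41.3, 46.98 and 34.7 CPM among monosomes, 26, 36.5 and 39.2 among low polysomes and 73.5, 98.1 and 87.1 among high polysomes in WT. KO values were 23.1, 31.7 and 27.2 CPM among monosomes, 28.5, 31.2 and 28.6 among low polysomes and 76.1, 74.4 and 76.3 among high polysomes. The groups were apart only in the monosome. The change over the mean was -0.31 ± 0.11 (adjusted p = 0.0257), lost without KO gradient 1 or 3 or WT gradient 2 (adjusted p = 0.0595 to 0.119). Dhx15, a helicase of spliceosome disassembly, completed the lower group with -0.29 ± 0.10 (adjusted p = 0.0258), lost without KO gradient 1 or 2 or WT gradient 2 or 3 (adjusted p = 0.0627 to 0.103).

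The members were then grouped by textbook role, as in the plot of changes by role. The 16 ribosome biogenesis members had 1 higher and 4 lower calls among monosomes, 3 and 3 among low polysomes, and 7 and 0 among high polysomes. Over all genes the shares higher and lower were 18.6% and 20.1%, 23.4% and 24.3%, and 25.3% and 21.1% in the same order, and they are the background for each list below. The 7 were Ddx47, Dhx37, Ddx31, Ddx24, Ddx54, Ddx55 and Ddx56, with log2 changes of 0.43 to 1.09. Of these calls, those of Ddx47 and Ddx54 held without any single gradient. That of Ddx55 was lost without KO gradient 2 or 3 or WT gradient 2 or 3 (adjusted p = 0.0588 to 0.14), that of Ddx56 without KO gradient 3 or WT gradient 1 or 2 (adjusted p = 0.11 to 0.185), that of Ddx31 without KO gradient 3 or WT gradient 3 (adjusted p = 0.0526 to 0.095), that of Ddx24 without KO gradient 3 or WT gradient 2 (adjusted p = 0.0853 to 0.102) and that of Dhx37 without WT gradient 2 (adjusted p = 0.0645). The medians of the 16 were -0.23, 0.07 and 0.26 in the 3 fractions. The 4 lower calls in the monosome were Ddx10, Ddx21, Ddx49 and Ddx27. That of Ddx49 was lost without KO gradient 2 or 3 or WT gradient 1 or 2 (adjusted p = 0.0525 to 0.0843) and that of Ddx27 without KO gradient 2 or 3 or WT gradient 2 or 3 (adjusted p = 0.0563 to 0.114), and the call of Ddx10 was lost as given above. Ddx18 was higher in the low polysome, at 0.49 ± 0.17 (adjusted p = 0.025), lost without KO gradient 1 or 2 or 3 or WT gradient 1 or 2 (adjusted p = 0.055 to 0.147). Dhx33 was lower there, at -0.43 ± 0.14 (adjusted p = 0.0137), lost without KO gradient 2 (adjusted p = 0.071). Ddx51 and Ddx52 were not called in any fraction.

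**Figure D2:**
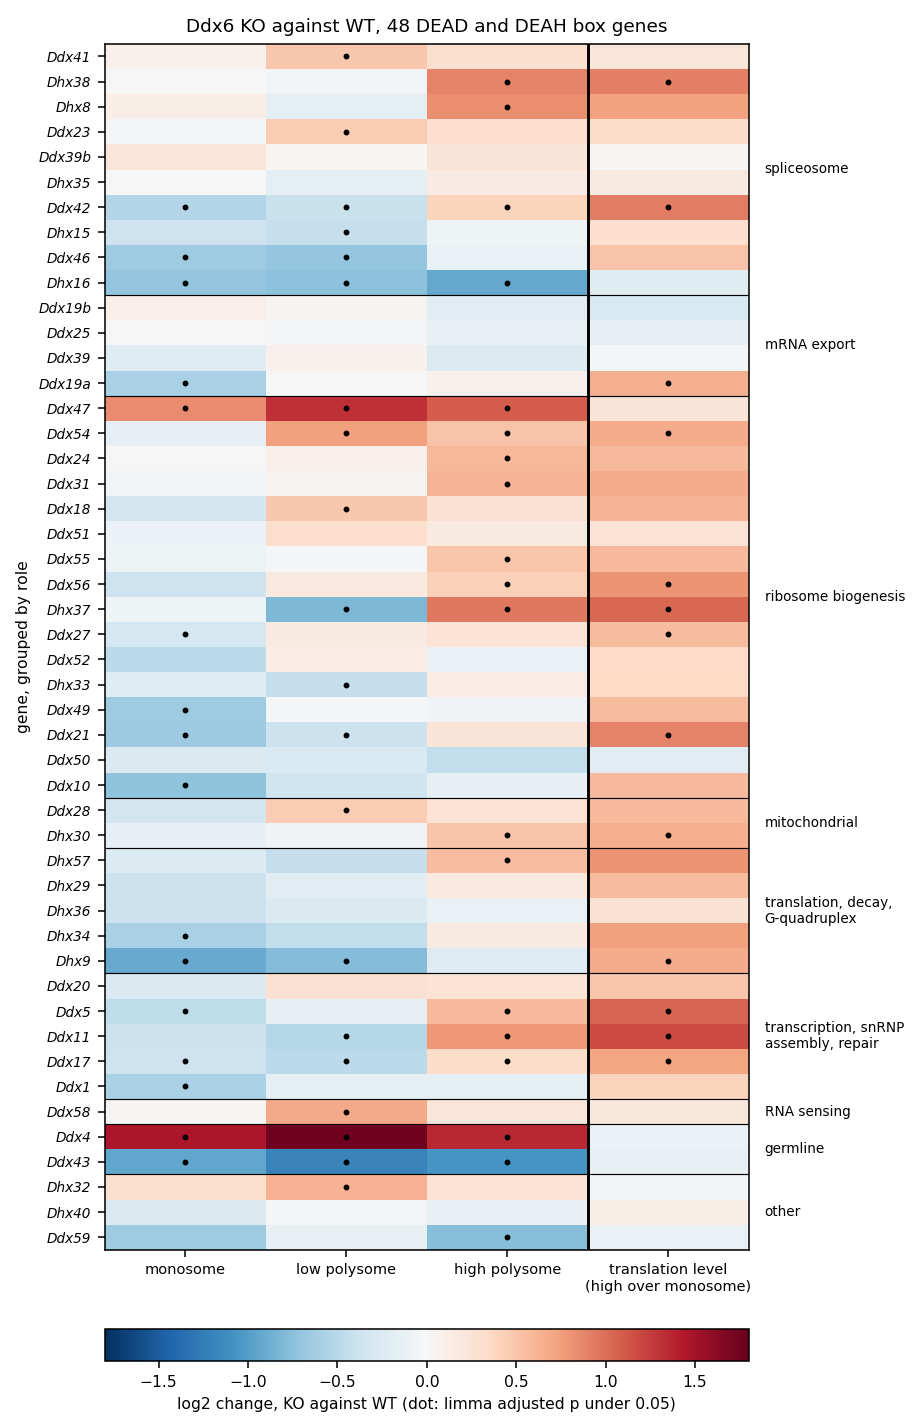
Heat map of the fitted log2 change, KO against WT, of the 48 members (rows, each under its first role list) in the 3 fractions and in translation level. Red is higher in KO, blue is lower, and dots mark a limma adjusted p under 0.05. The monosome column is mostly blue, with 14 lower calls, and the high polysome column holds 16 higher calls.

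Of the 10 spliceosome members, Dhx38, Dhx8 and Ddx42 were higher in the high polysome and Dhx16 was lower, with a median of 0.26. The KO effect on high polysome over monosome was above 0 in 9 of the 10 (median 0.31), with 2 raised and 0 lowered. Of all 48 members 39 were above 0, with a median of 0.54, so this was not particular to the list. Over all genes 51.3% were above 0, 10.7% were raised and 7.09% lowered. In the low polysome Ddx41 and Ddx23 were higher and Ddx46, Ddx42, Dhx15 and Dhx16 were lower. The low polysome calls of Ddx41, Ddx23 and Dhx15 were lost without KO gradient 2 or WT gradient 2 (adjusted p = 0.0803 to 0.101), without KO gradient 1 or 2 or WT gradient 1 or 2 (adjusted p = 0.0652 to 0.168) and without KO gradient 2 or WT gradient 2 or 3 (adjusted p = 0.0756 to 0.103), in this order. Ddx46, Ddx42 and Dhx16 were lower in the monosome, and the call of Ddx46 there was lost without KO gradient 1 or 3 or WT gradient 2 (adjusted p = 0.0676 to 0.0781). The calls of Ddx42, given below, were lost without single gradients too. Over the mean of the fractions 4 of the 10 were higher and 3 lower, against 28.5% and 28.5% of all genes. Dhx35 and Ddx39b, which unwinds RNA for spliceosome assembly and export, were not called in any fraction.

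Of the 5 mRNA export members, Ddx19a alone was called in a fraction, lower in the monosome at -0.58 ± 0.14 (adjusted p = 0.00198). Ddx19a and Ddx19b encode near-identical helicases that release export factors at the nuclear pore. Ddx19b had changes of 0.10, 0.049 and -0.18 in the 3 fractions, with adjusted p of 0.165 or more. Ddx39 had -0.21, 0.075 and -0.25, with adjusted p of 0.0938 or more.

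The 5 members with roles in translation, decay or G-quadruplex RNA all had log2 changes below 0 in the monosome and the low polysome, with medians of -0.38 and -0.42. Of all 48 members, 38 and 28 were below 0 in these fractions, and 47.8% and 48.5% of all genes were above 0. Within the list of 5, Dhx9 and Dhx34 were called in the monosome and Dhx9 in the low polysome. DHX34 takes part in nonsense-mediated decay, and its monosome change was -0.58 ± 0.22 (adjusted p = 0.0462), lost without KO gradient 2 or 3 or WT gradient 1 or 3 (adjusted p = 0.102 to 0.194). In the high polysome Dhx57 was higher, at 0.56 ± 0.21 (adjusted p = 0.0313), lost without KO gradient 2 or 3 or WT gradient 1 or 2 (adjusted p = 0.0799 to 0.169). Dhx29, which helps the small subunit scan structured leaders, and Dhx36, which resolves G-quadruplexes, were not called in any fraction. For Dhx29 the monosome change was -0.38 ± 0.19 (adjusted p = 0.115), and for Dhx36 it was -0.38 ± 0.18 (adjusted p = 0.105).

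The 5 members of the transcription, snRNP assembly and repair list lay below 0 in the monosome, as did 38 of all 48 members, with Ddx1, Ddx5 and Ddx17 called. The call of Ddx1 was lost without KO gradient 1 or 3 or WT gradient 2 (adjusted p = 0.0525 to 0.102), that of Ddx5 without KO gradient 1 or WT gradient 2 or 3 (adjusted p = 0.0662 to 0.119) and that of Ddx17 without KO gradient 1 or 3 or WT gradient 1 or 3 (adjusted p = 0.0696 to 0.171). In the high polysome Ddx11, Ddx5 and Ddx17 were higher, and the call of Ddx5 was lost without WT gradient 1 (adjusted p = 0.0546). Ddx20, a component of the SMN complex that assembles snRNPs, was not called. Of the mitochondrial pair, Dhx30 was higher in the high polysome at 0.52 ± 0.15 (adjusted p = 0.00772), lost without KO gradient 3 or WT gradient 2 (adjusted p = 0.0703 to 0.09). Ddx28 was higher in the low polysome at 0.46 ± 0.17 (adjusted p = 0.0324), lost without KO gradient 2 or 3 or WT gradient 2 or 3 (adjusted p = 0.11 to 0.167). Ddx58, which encodes the viral RNA sensor RIG-I and had 16 to 102 counts in a library, was higher in the low polysome at 0.69 ± 0.27 (adjusted p = 0.0403), a call lost in edgeR, in DESeq2 and without KO gradient 1 or 2 or 3 or WT gradient 1 (adjusted p = 0.0726 to 0.417). Ddx25, a testis helicase of the germline list, and Dhx40 were not called.

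The study defined translation level as high polysome over monosome abundance. In WT cells the members spanned a wide range of it. By the log2 ratio of high polysome to monosome, 18 of 48 were called on the polysome side (37.5%, against 28.9% of all genes) and 14 on the monosome side (29.2%, against 32.2%). Ddx17 (-2.26), Ddx43 (-2.18), Ddx11 (-2.05), Ddx5 (-1.87) and Ddx55 (-1.68) lay farthest to the monosome side. Dhx32 (1.30), Ddx59 (1.15), Ddx10 (1.12) and Ddx1 (1.08) lay farthest to the polysome side. The median SE of these values was 0.18, and neighbours in the order were not tested against each other.

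In KO cells the translation level rose in 13 members (27.1%, against 10.7% of all genes) and fell in 0 (0.0%, against 7.09%). The interaction term, which compares the KO difference with the WT difference, had a median of 0.54 over the members and 0.02 over all genes, and it was above 0 in 39 of the 48. The 13 were Ddx11, Ddx5, Dhx37, Ddx42, Dhx38, Ddx21, Ddx56, Ddx17, Dhx9, Ddx54, Dhx30, Ddx19a and Ddx27, with log2 changes of 0.57 to 1.18. They came from 6 of the role lists. Dhx9, Ddx19a, Ddx21 and Ddx27 were called lower in the monosome and were not called in the high polysome. Their high polysome changes were -0.23, 0.073, 0.23 and 0.25 in this order (adjusted p = 0.0544 to 0.635). The rest of the 13 were called higher in the high polysome. For the 0 members that fell, edgeR and DESeq2 also called 0, and 22 members had an unadjusted p under 0.05 in either direction. The count rested on single gradients: it was 2 without KO gradient 3, 4 without WT gradient 2 and 5 without WT gradient 1. With library size alone in place of TMM, the median of all genes moved from 0.02 to -0.10, the calls over all genes turned from 1357 higher and 901 lower to 936 and 1389, and 10 members were called higher and 0 lower. The median of the members stood 0.51 above that of all genes with TMM and 0.52 above it with library size alone.

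**Figure D3:**
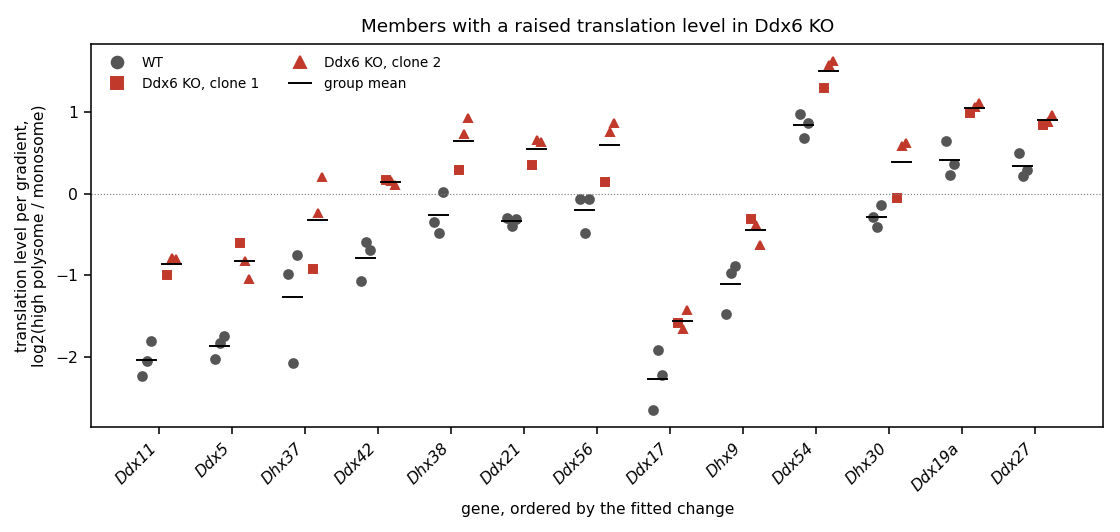
Translation level, log2 of high polysome over monosome CPM (0.5 CPM added to each), per gradient for the 13 members with a raised translation level, ordered by the fitted change. Grey circles are WT gradients, red squares KO clone 1, red triangles KO clone 2, and bars are means. For Dhx37 the groups overlap, and for the other 12 they do not.

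Ddx11, a DNA helicase for sister chromatid cohesion, had the largest change. Its log2 ratios were -2.24, -2.05 and -1.81 in WT gradients 1 to 3 and -0.99, -0.79 and -0.80 in KO gradients 1 to 3. All KO ratios were well above all WT ratios. The underlying levels were 59.1, 46.98 and 42.3 CPM among monosomes, 23.7, 24.4 and 34.6 among low polysomes and 12.2, 10.96 and 11.7 among high polysomes in WT, and 40.9, 34.6 and 34.9 CPM among monosomes, 21.97, 19.3 and 16.5 among low polysomes and 20.3, 19.8 and 19.9 among high polysomes in KO. KO was below WT in the monosome and low polysome and above it in the high polysome, without overlap. The monosome change of -0.39 ± 0.16 (adjusted p = 0.0559) was not called. The low polysome change was -0.52 ± 0.17 (adjusted p = 0.014), lost without KO gradient 3 or WT gradient 3 (adjusted p = 0.0996 to 0.113). The high polysome change was 0.79 ± 0.18 (adjusted p = 0.00126) and the change in translation level was 1.18 ± 0.24 (adjusted p = 0.00296), and both calls held without any single gradient.

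Ddx5, a transcriptional coregulator that also acts in splicing and miRNA processing, came second. Its ratios were -2.02, -1.83 and -1.74 in WT and -0.60, -0.82 and -1.04 in KO. The lowest KO ratio, in clone 2, stood well above the highest WT ratio. Levels were 293, 334 and 354 CPM among monosomes, 82.9, 108 and 118 among low polysomes and 71.9, 93.6 and 105 among high polysomes in WT, and 197, 258 and 263 CPM among monosomes, 98.7, 91.2 and 86.6 among low polysomes and 130.0, 146 and 128 among high polysomes in KO. KO was below WT in the monosome and above it in the high polysome, and the change was 1.05 ± 0.22 (adjusted p = 0.0033), which held in every alternative. No alternative dealt with the 22.6% of its 50-base stretches that other genes also hold, so its values stay uncertain. Ddx17, the closest paralog of Ddx5, had ratios of -2.65, -1.92 and -2.23 in WT and -1.58, -1.66 and -1.43 in KO, without overlap. Its change was 0.71 ± 0.19 (adjusted p = 0.0152), lost without KO gradient 3 or WT gradient 1 (adjusted p = 0.106 to 0.21).

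Dhx37, a DEAH box factor of small subunit assembly, was weakly expressed, with 37 to 161 counts. Its ratios were -0.99, -2.07 and -0.75 in WT and -0.93, -0.23 and 0.20 in KO, and WT gradient 3 lay above KO gradient 1. The change of 1.03 ± 0.35 (adjusted p = 0.0477) was lost in edgeR and DESeq2 and with the gradient as a block (adjusted p = 0.06). It was also lost without KO gradient 2 or 3 or WT gradient 1 or 2 (adjusted p = 0.11 to 0.317). With that block 14 members were called higher, among them Ddx18 (0.57, adjusted p = 0.0469) and Dhx57 (0.77, adjusted p = 0.0474).

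Ddx42, a helicase associated with the U2 snRNP, had ratios of -1.07, -0.59 and -0.69 in WT and 0.17, 0.15 and 0.11 in KO. All WT ratios were below 0 and all KO ratios above it. Its levels were 74.6, 62.7 and 73.5 CPM among monosomes, 40.3, 44.6 and 60.3 among low polysomes and 35.2, 41.4 and 45.3 among high polysomes in WT, and 42.97, 55.3 and 48.2 CPM among monosomes, 33.4, 40.2 and 34.9 among low polysomes and 48.4, 61.5 and 51.97 among high polysomes in KO. The change was 0.93 ± 0.22 (adjusted p = 0.00818), lost without KO gradient 3 or WT gradient 1 (adjusted p = 0.0521 to 0.0748). For Dhx38, whose levels are given above, the ratios were -0.35, -0.48 and 0.028 in WT and 0.29, 0.73 and 0.93 in KO. Clone 1 was the lowest KO value and still above all WT values. The change was 0.91 ± 0.21 (adjusted p = 0.00583), lost without KO gradient 3 or WT gradient 1 or 2 (adjusted p = 0.0504 to 0.0673).

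Ddx21, a nucleolar helicase that couples rRNA transcription to processing, had ratios of -0.29, -0.40 and -0.30 in WT and 0.35, 0.66 and 0.63 in KO. All WT ratios were below 0 and all KO ratios above it. Levels were 209, 243 and 272 CPM among monosomes, 156, 183 and 251 among low polysomes and 170.2, 184 and 220.4 among high polysomes in WT, and 156, 145 and 158 CPM among monosomes, 143, 165 and 136 among low polysomes and 199, 229 and 245 among high polysomes in KO. The change was 0.89 ± 0.22 (adjusted p = 0.00905), lost without KO gradient 3 or WT gradient 2 (adjusted p = 0.0572 to 0.0665). The other members raised were Ddx56 (0.81), Dhx9 (0.67), Ddx54 (0.66), Dhx30 (0.66), Ddx19a (0.65) and Ddx27 (0.57), with adjusted p of 0.0136 to 0.0396. Each of these 6 calls was lost when some single gradients were left out, in all 6 without KO gradient 3.

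The change in translation level varied with coding length over all genes. In 20 bins of equal size, the median change was -0.53 in the bin of shortest coding sequences (median 318 nt) and 0.63 in the longest (median 6075 nt). The members had longer coding sequences than the typical gene, with a median of 2236.5 nt (1281 to 4164 nt) against 1371 nt over the 11778 tested genes with a coding sequence. The 13 raised members had a median of 2622 nt and the other 35 of 2184 nt. With the trend on coding length subtracted from every gene, the median of the members was 0.14 in place of 0.54, and 31 of 48 were above 0. In that analysis Ddx5 was the only member raised (0.82 ± 0.22, adjusted p = 0.0305) and Dhx16 the only member lowered (-0.64 ± 0.18, adjusted p = 0.0357). This is 1 of 48 members each way, beside 427 raised and 264 lowered of the 11778 genes. Ddx11 stood at 0.79 ± 0.24 (adjusted p = 0.0527). Among the 13 raised members Dhx9 went from 0.67 to 0.14 and Dhx30 from 0.66 to 0.17. Above a coding length of 1500 nt, a bound chosen after the values were seen, 12 of 41 members (29.3%) were raised against 20.9% of 5266 genes tested, and the medians were 0.57 and 0.39.

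**Figure D4:**
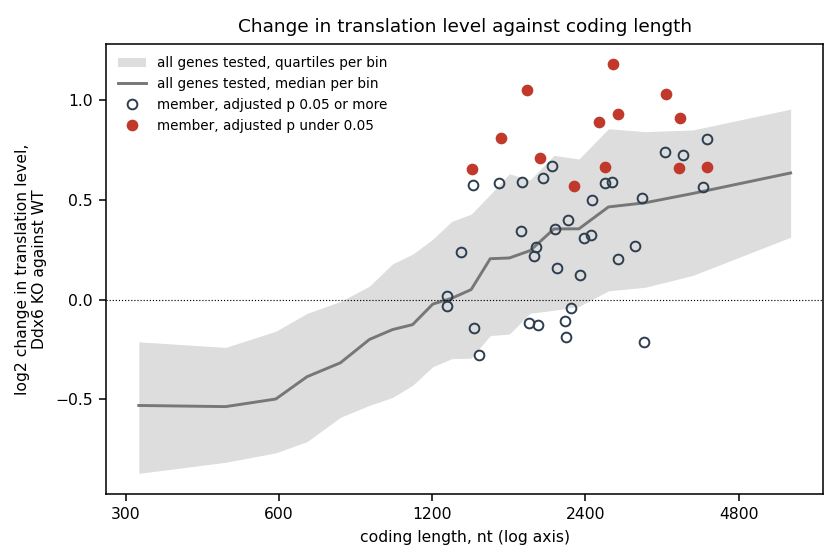
Change in translation level, KO against WT (log2, vertical axis), against coding length in nt (log axis). The grey line and band are the median and quartiles of all genes tested in 20 bins. Filled red points are the 13 members called and open points the other 35. The grey line climbs from -0.53 in the first bin to 0.63 in the last, and the members lie over its right part.

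Low polysome over monosome, tested in the same way, was raised in 1 member (2.08%, against 2.31% of all genes) and lowered in 0 (0.0%, against 2.39%). The member was Ddx54, at 0.88 ± 0.19 (adjusted p = 0.0146), and the call was lost without KO gradient 2 or 3 or WT gradient 1 or 2 (adjusted p = 0.0622 to 0.138). With the gradient as a block Ddx18 was called too (0.78, adjusted p = 0.0386). DESeq2 called 5 members raised and edgeR called 1. For the 0 members lowered, edgeR and DESeq2 also called 0, and 7 members had an unadjusted p under 0.05 in either direction. With library size alone 31.7% of the calls made over all genes were higher, in place of 49.2%, with the same count of members.

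Of the members, 4 were called in opposite directions in the low and the high polysome, lower in the first and higher in the second. These were Ddx11, Ddx17, Ddx42 and Dhx37 (8.33% of members, against 0.559% of genes tested). Ddx17 and Ddx42, with Ddx5, were also called lower in the monosome and higher in the high polysome (6.25%, against 0.96%). Those monosome calls rested on single gradients: that of Ddx42 was lost without KO gradient 1 or KO gradient 3 (adjusted p = 0.0527 to 0.0633) and that of Ddx5 without KO gradient 1 or WT gradient 2 or 3 (adjusted p = 0.0662 to 0.119). In all, 5 members were called higher in 1 fraction and lower in another (10.4%, against 2.32%). In Ddx17 the WT levels were 1562, 1214 and 1471 CPM among monosomes, 805, 850.3 and 896 among low polysomes and 249, 321 and 314 among high polysomes. KO levels were 944, 1228 and 1103 CPM among monosomes, 611, 594 and 627 among low polysomes and 315, 388 and 409.5 among high polysomes. The low polysome groups were apart, and those in the monosome and high polysome overlapped by 1 library. The changes were -0.37 ± 0.13 (adjusted p = 0.0316), -0.48 ± 0.13 (adjusted p = 0.00607) and 0.33 ± 0.14 (adjusted p = 0.0498). The first was lost with library size alone and without KO gradient 1 or 3 or WT gradient 1 or 3 (adjusted p = 0.0696 to 0.171). The last was lost in edgeR, in DESeq2 and without KO gradient 2 or 3 or WT gradient 1 or 3 (adjusted p = 0.0602 to 0.477). For Ddx42 the low polysome change was -0.41 ± 0.16 (adjusted p = 0.0415), lost without KO gradient 1 or 3 or WT gradient 2 or 3 (adjusted p = 0.0645 to 0.26). Its high polysome change of 0.40 ± 0.15 (adjusted p = 0.0371) was lost in DESeq2 and without KO gradient 2 or 3 or WT gradient 1 or 2 (adjusted p = 0.0857 to 0.273).

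**Figure D5:**
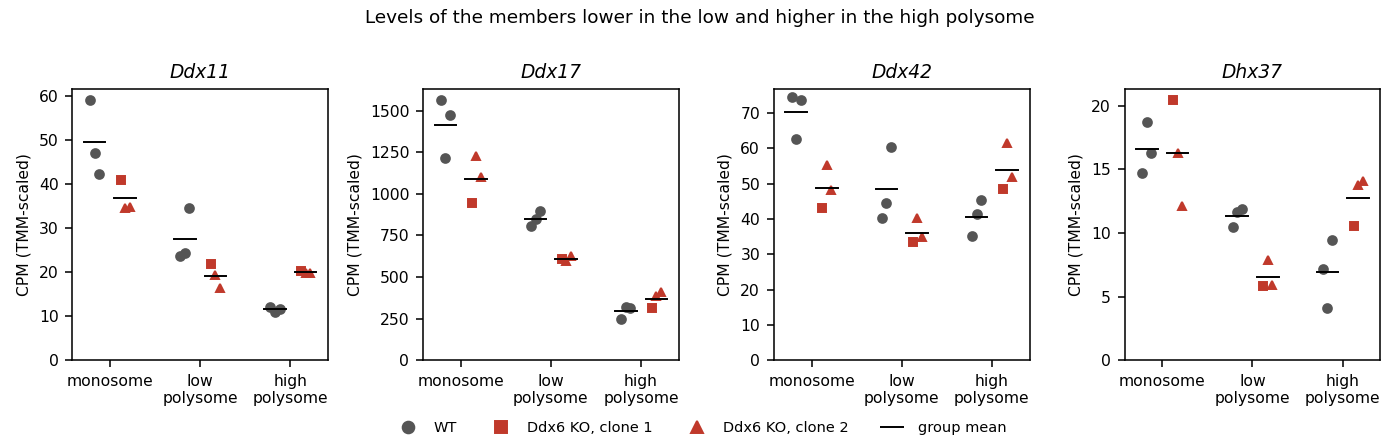
TMM-scaled CPM (vertical axes from 0) of Ddx11, Ddx17, Ddx42 and Dhx37 in each fraction. Grey circles are WT gradients, red squares KO clone 1, red triangles KO clone 2, and bars are group means. In the low polysome the KO points lie below the WT points for all 4 genes, and in the high polysome they lie above, with overlap in Ddx17.

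In Dhx37 the WT levels were 14.7, 18.8 and 16.3 CPM among monosomes, 10.5, 11.6 and 11.9 among low polysomes and 7.16, 4.09 and 9.48 among high polysomes. KO levels were 20.5, 16.3 and 12.1 CPM among monosomes, 5.88, 7.88 and 5.94 among low polysomes and 10.5, 13.8 and 14.1 among high polysomes. The groups overlapped in the monosome and were apart, in opposite directions, in the low and the high polysome. The changes were -0.81 ± 0.26 (adjusted p = 0.0161) in the low polysome, lost without KO gradient 3 (adjusted p = 0.0596), and 0.96 ± 0.25 (adjusted p = 0.00397) in the high polysome, lost without WT gradient 2 (adjusted p = 0.0645).

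A test of the difference between these fractions, added after the values were seen, gave 7 members with a raised high over low polysome ratio (14.6%, against 3.39% of all genes) and 0 with a lowered one (0.0%, against 1.03%). They were Dhx37 at 1.76 ± 0.36 (adjusted p = 0.0103), Ddx11 at 1.31 ± 0.24 (adjusted p = 0.00586), Dhx8 at 1.001 ± 0.24 (adjusted p = 0.0222), Dhx57 at 0.98 ± 0.28 (adjusted p = 0.0469), Dhx38 at 0.95 ± 0.20 (adjusted p = 0.0129), Ddx42 at 0.81 ± 0.22 (adjusted p = 0.0411) and Ddx17 at 0.81 ± 0.19 (adjusted p = 0.0206). Of these 7, 4 carry the D-E-x-H motif, as do 14 of all 48 members. Coding lengths of the 7 ran from 1956 nt (Ddx17) to 4164 nt (Dhx57), where the median of the members was 2236.5 nt. The part of motif or coding length in these calls was not tested. The count was 0 without KO gradient 3 or WT gradient 2, 1 without WT gradient 1, 3 without WT gradient 3 and 4 without KO gradient 2. With DESeq2 size factors, 5 members were called, and of the calls made over all genes 60.7% were higher, in place of 76.7%. With the gradient as a block 9 were called, among them Ddx5 (0.74, adjusted p = 0.0216) and Ddx21 (0.62, adjusted p = 0.0397). For the 0 lowered members, edgeR and DESeq2 also called 0, and 14 members had an unadjusted p under 0.05 in either direction.

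Split by motif, the 29 members with D-E-x-D had 2 higher and 10 lower calls among monosomes, 6 and 5 among low polysomes, and 10 and 2 among high polysomes. The 14 with D-E-x-H had 0 and 3, 0 and 5, and 5 and 1. Over all genes these shares were 18.6% and 20.1%, 23.4% and 24.3%, and 25.3% and 21.1%. In the low polysome all 14 of the latter had log2 changes below 0, from -0.81 to -0.03, with a median of -0.34, while the 29 had a median of 0.05. The groups also differed in coding length, which ran from 2094 nt (Dhx33) to 4164 nt (Dhx57) in the 14. In the 29 it ran from 1281 nt (Ddx39) to 3096 nt (Ddx46). The difference between the motif groups was not tested, nor was the part of coding length in it.

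For comparison, 20 RNA helicases whose symbols the rule does not match were listed, and 16 of them passed the filter. For monosomes 0 were higher and 5 lower, for low polysomes 3 and 4, and for high polysomes 6 and 1, beside the shares over all genes just given. Their translation level was raised in 5 (Upf1, Helz, Mov10, Ythdc2 and Snrnp200) and lowered in 0, with a median of 0.57, where 10.7% of all genes were raised and 7.09% lowered. How far these calls rested on single gradients or on coding length was not looked at. Over all genes 8.41% were called lower in all 3 fractions. Eif4a2, a DEAD box initiation factor and the sole one of the 16 lower in all 3 fractions, changed by -1.37 (adjusted p = 4.93e-05), -1.02 (adjusted p = 0.00117) and -1.18 (adjusted p = 0.000264). Its paralog Eif4a1 had -0.25 (adjusted p = 0.17), 0.56 (adjusted p = 0.00237) and -0.072 (adjusted p = 0.684). Mov10, an RNA helicase that binds Argonaute, was higher in the low and high polysome, at 0.78 (adjusted p = 0.0197) and 1.67 (adjusted p = 1.29e-05).

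Since DDX6 takes part in repression by miRNAs, the 3′ UTRs of the members were searched for the 8mer site AGCACTTA of a miRNA family highly expressed in ESCs. The mature sequence of a family member from RefSeq (GRCm38.p6, chr7:3220691-3220712) is shown with its seed, bases 2 to 8, in capitals, above the one site found, with the site in capitals.
mmu-miR-294-3p: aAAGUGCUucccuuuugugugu
Ddx52 3′ UTR: gtacaagttgaAGCACTTAagactggagcc

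These 30 bases lie at chr11:83962737-83962766 on the plus strand of GRCm38, in exon 15 of 15, and the site starts at base 941 of a 3′ UTR of 1281 nt. It was the only such site in the 48 members, against 443 of 11750 tested genes with an annotated 3′ UTR (3.77%). Only this 8mer was searched, so shorter sites of the family in other members would be missed. Ddx52, a nucleolar helicase, was not called in any comparison of KO with WT. Its changes were -0.47 ± 0.20 (adjusted p = 0.0656), 0.13 ± 0.20 (adjusted p = 0.624) and -0.13 ± 0.18 (adjusted p = 0.597) from monosome to high polysome, and 0.35 ± 0.27 (adjusted p = 0.393) in translation level.

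In all, 11 of the 48 members (22.9%) were called in no comparison of KO with WT: Ddx19b, Ddx20, Ddx25, Ddx39, Ddx39b, Ddx51, Ddx52, Dhx29, Dhx35, Dhx36 and Dhx40. The share of all genes with this pattern was not counted. Called in no single fraction were 12 members (25%), close to the 27.8% of all genes tested. For the typical member the SE of a log2 change within a fraction was 0.16 to 0.18, and for translation level it was 0.24. A miss therefore does not show that a level was the same in KO and WT.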

How the data were processed

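Libraries were made from sucrose gradient fractions with the QuantSeq 3′ FWD kit. The authors trimmed reads with cutadapt 1.14, aligned them to mm10 with STAR 2.5.3a, keeping reads with 1 alignment, and deposited raw read counts per gene from featureCounts 1.5.3 by strand on Gencode M14. Depth was 2543617 to 11474550 gene counts per library. The use of molecular identifiers is not given in the sources used here.

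Gene names came from Gencode M21, which matched 51274 identifiers and left 193 unmatched. The 12705 genes with at least 3 CPM in at least 3 libraries were kept, the study's filter. TMM scaling used edgeR 4.0.16. The voom model of limma 3.58.1, in R 4.3.3, had 6 group means. Contrasts compared KO with WT within a fraction, and interaction terms compared that difference between fractions. The mean over fractions was tested over the 6 gradients by limma with a trend, on log2 CPM with a prior count of 2. Adjusted p-values are Benjamini-Hochberg values over all genes tested, with a threshold of 0.05, and ± marks the SE. Printed CPM values are TMM-scaled, and per-gradient log2 ratios used a pseudocount of 0.5 CPM. The scripts were tested on simulated data.

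Groups and gradient numbers came from the sample labels. The fractions of a gradient came from 1 lysate. Deviations from the group means correlated at -0.173 to 0.464 (median 0.0871, 18 pairs) between libraries of the same gradient and at -0.468 to 0.532 (median -0.046, 36 pairs) between different gradients. No 2 libraries agreed within sampling noise, since the chi-square per degree of freedom between replicates was 3.62 to 30.2.

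Values in every library are given for members called in the mean over fractions or in all 3 fractions (up to the 8 highest and 8 lowest) and for the 6 with the highest change in translation level. The remaining members are given by counts, ranges or changes, and genes under the filter are named only. The members, role lists and tests were chosen with earlier results of these data known. Protein sequences were not used here. Alternatives were edgeR's quasi-likelihood test, DESeq2 1.42.0, its size factors, library size alone, no filter, only the compared groups, equal depth, blocks, a coding length trend and leaving out each gradient. Added after the values were seen were the comparison of high with low polysome and the bound of 1500 nt.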

Additional observations from a re-analysis of the deposited data

Results flagged for a closer look

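The KO effect differed between fractions in several members, by a limma test of the interaction itself with an adjusted p under 0.05. Between high polysome and monosome, the log2 difference of the effects was 1.18 for Ddx11, 1.05 for Ddx5, 1.03 for Dhx37, 0.93 for Ddx42, 0.91 for Dhx38 and 0.89 for Ddx21. It was 0.81 for Ddx56, 0.71 for Ddx17, 0.67 for Dhx9, 0.66 for Ddx54, 0.66 for Dhx30, 0.65 for Ddx19a and 0.57 for Ddx27. In all 13 the effect in the high polysome lay above that in the monosome. With the trend on coding length removed, Ddx5 alone of the 13 passed the test. Between low polysome and monosome the difference was 0.88 for Ddx54 (2.08% of members, against 2.31% of all genes raised). That call was lost without KO gradient 2 or 3 or WT gradient 1 or 2 (adjusted p = 0.0622 to 0.138).

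Between high and low polysome, a comparison chosen after seeing the data, the difference was 1.76 for Dhx37, 1.31 for Ddx11, 1.001 for Dhx8, 0.98 for Dhx57, 0.95 for Dhx38, 0.81 for Ddx42 and 0.81 for Ddx17. These were 14.6% of the members, against 3.39% of all genes raised. None of these 7 calls held without KO gradient 3 or without WT gradient 2.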

How the results depend on the processing

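Counts of called members in limma moved with single gradients. Leaving out 1 gradient gave 6 to 13 lower members in the monosome (14 with all gradients), 4 to 8 higher (9) and 7 to 12 lower (11) in the low polysome, and 8 to 17 higher (16) and 3 to 6 lower (3) in the high polysome. It gave 4 to 8 higher (8) and 7 to 11 lower (9) over the mean, 2 to 16 raised in high polysome over monosome (13), 0 to 3 in low polysome over monosome (1) and 0 to 6 in high over low polysome (7). With library size alone 9 members were lower in the monosome. With no filter on low counts 5 monosome and 7 low polysome calls were lower, 6 were raised in high polysome over monosome and 4 in high over low polysome. With only the compared groups 4 were higher and 7 lower in the low polysome, and 4 were raised in high over low polysome. At equal depth 5 were higher and 5 lower in the low polysome, 8 were higher in the high polysome and 2 were raised in high over low polysome. DESeq2 gave 6 lower members in the high polysome, 5 with its size factors alone, and 5 raised in low polysome over monosome. Removing the coding length trend left 1 member raised and 1 lowered in high polysome over monosome, beside 427 and 264 of 11778 genes. With the gradient as a block 2 were raised in low polysome over monosome, and outside the calls named beside the results it changed Ddx19b (adjusted p = 0.0533) and Ddx21 (adjusted p = 0.0199) in WT high polysome over monosome. DESeq2 gave no adjusted p to 2 members in high over low polysome and 3 in low polysome over monosome. No called member changed direction under any of these alternatives, and the cause of the differences was not tested.

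WT and KO gradients shared only a number, and same-numbered libraries of a fraction correlated at -0.485 to 0.243 (9 pairs). With that number as a replicate block, 20 members were lower in the monosome, 4 higher and 6 lower in the low polysome, 15 higher and 4 lower in the high polysome, and 9 higher and 12 lower over the mean. The 3 WT monosome libraries were the shallowest, which limits precision most in that fraction, and 22 of the 48 members had fewer than 100 counts in some library.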
